A study of Sus scrofa with 6 samples.

Results

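The genes described here encode the proteins that package DNA in the nucleus: histones, the enzymes that write and erase marks on histones and DNA, the readers of those marks, the remodellers that move nucleosomes, the high mobility group proteins that bend DNA, and the lamins that line the nuclear envelope. They were chosen by a rule on gene symbols that uses no signal, but that was set with earlier results of these arrays known. Only probe sets that carry exactly 1 symbol in the platform annotation were used. Among the 6765 genes that the annotation names on the array, 79 genes (141 probe sets) were chosen. Of these, 45 genes had 1 probe set and 34 had several, and each gene was represented by its brightest probe set, that with the highest mean log2 signal over all arrays. All 79 entered the test, since no filter on dim probe sets was used. EZH1, SUZ12 and LMNB2 are not among the named genes of this array and were not analysed here.

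RNA came from the cerebral cortex of pig embryos, 3 at embryonic day 60 (E60), when the cortex is smooth, and 3 at embryonic day 80 (E80), when the first folds have formed. Each embryo had 1 GeneChip for the pig genome, on which a set of short probes reads each transcript in a single colour. No genetic change or treatment is named for either day. Littermates from 3 litters were used, but neither the litter nor the breed or sex of a given embryo is named, so p-values measure the spread between embryos with these unknown. Embryos of the same day may share a litter, and some must if the 3 litters cover both days, since embryos of different days cannot. The p-values then do not measure the spread between litters. Differences between litters and between days cannot be told apart here. The embryos are numbered 1 to 3 within each day in the order in which they are listed, and no label ties an embryo of one day to an embryo of the other.

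Chromatin is rebuilt as neural progenitors stop dividing and their daughters become neurons. Dividing cells draw on histone supply and replication-coupled methylation, while Polycomb repressive complex 2 keeps the genes of later fates silent by methylating lysine 27 of histone H3. In the developing cortex EZH2, the catalytic subunit of that complex, is known for restraining progenitors from early differentiation, and lamin B1 for its need in the migration of neurons. The remodelling complexes of the SWI/SNF family exchange subunits as progenitors turn into neurons.

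The signal is the MAS5 value that the authors' software gave per probe set and array, on a linear scale. The change of a gene is the difference of its mean log2 signals, E80 minus E60, with its standard error (SE), and a gene is said to have risen or fallen where limma gave an adjusted p under 0.05 (Benjamini-Hochberg over all 23999 probe sets tested). The median signal of the arrays was 60.9 to 64.8 at E60 and 55.6 to 59.5 at E80. Neural transcripts were high on all 6 arrays, with signals of 3351 to 4262 for the neuronal tubulin regulator STMN2 and 2526 to 2881 for FABP7, the fatty acid binding protein of radial glia. Embryo 3 of E80 stood apart through choroid plexus transcripts, with a signal of 4475 for transthyretin (TTR) against 1.47 to 15.1 on the other 5 arrays.

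The chromatin genes were mostly lower at E80 than at E60. Of the 79 genes, 5 (6.33%) had fallen and none had risen, while 63 (79.7%) had a lower mean log2 signal at E80, against 50.1% of the named genes and 55.7% of all probe sets. The 5 were lamin B1 (LMNB1), EZH2, the DNA-bending protein HMGB2, the histone demethylase KDM1A and the SWI/SNF subunit SMARCE1. Over all 23999 probe sets 1.01% had fallen and 0.933% had risen, and over the brightest probe sets of the 6765 named genes 1.05% had fallen and 1.49% had risen. At an unadjusted p under 0.05, 28 of the chromatin genes (35.4%) were lower and 1 (1.27%) was higher, against 10.6% and 10.1% of the named genes and 10.8% and 7.12% of all probe sets. In the settings tried, limma called between 0 and 1 of the chromatin genes higher. The count of 5 depends on single arrays and on the variance model: it was 0 without embryo 1 or 2 of E60 or embryo 1 of E80, 3 without any one of the other 3 embryos, and 0 in limma without an intensity trend, in which no probe set of the array passed. In each of the fits without embryo 1 or 2 of E60 or embryo 1 of E80, only 1 of all 23999 probe sets passed.

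The same tilt showed in the order of the arrays. In 30 of the 79 genes (38%) all 3 signals of E80 lay below all 3 of E60, against 14.7% of the named genes and 14.4% of all probe sets. In 2 genes (2.53%), SMARCA2 and KMT2E, all signals of E80 lay above those of E60, against 12.8% of the named genes and 9.25% of all probe sets. The median log2 difference of the chromatin genes was -0.21, that of the named genes was -0.00046 and that of all probe sets was -0.05. On the single arrays of E80, the median of the chromatin genes lay 0.22, 0.20 and 0.23 below the mean of E60 on the log2 scale. When the arrays were scaled to equal median signals, which shifted all log2 differences by 0.12, 18 genes (22.8%) lay below and 3 (3.8%) above, against 8.09% and 20.7% of the named genes. The genes were picked with earlier results of these arrays known, so that these shares are a description and were not tested as a set.

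**Figure D1:**
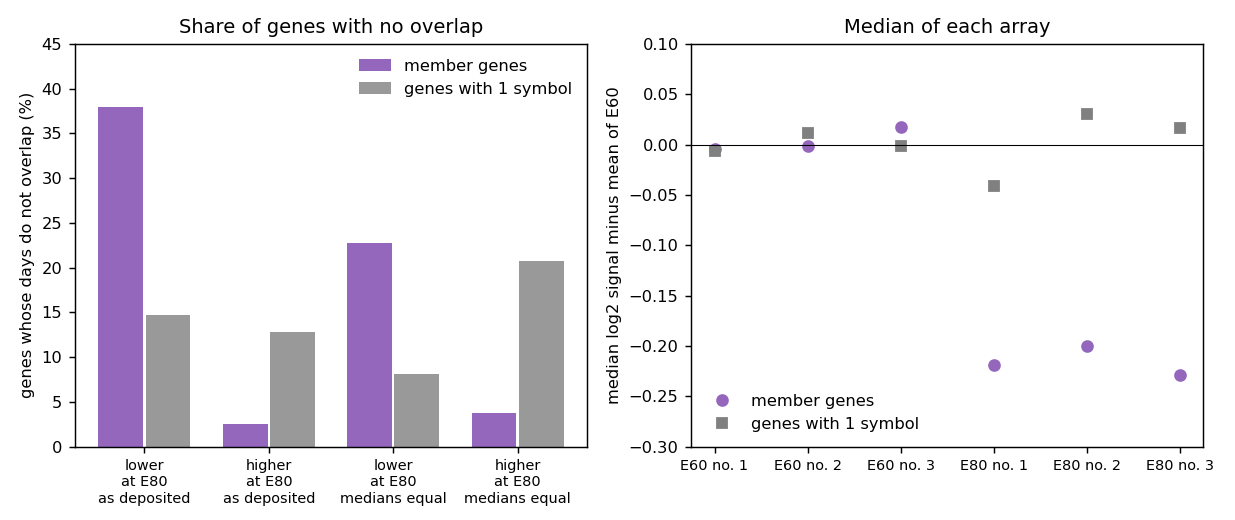
Left, percent of genes whose signals of E60 and E80 do not overlap (vertical axis), for the 79 chromatin genes (purple) and the 6765 named genes (grey), with signals as deposited and with equal array medians. Right, median over genes of the log2 signal minus the gene's mean of E60 (vertical axis) for each array. As deposited, 38% of the chromatin genes and 14.7% of the named genes were lower at E80 without overlap, and all 3 arrays of E80 had a lower median for the chromatin genes.

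Lamins form the meshwork beneath the inner nuclear membrane. LMNB1 had signals of 366, 332 and 284 at E60 and of 125, 167 and 127 at E80. The lowest embryo of E60 was well above the highest of E80. LMNB1 was 2.35-fold lower at E80, a log2 change of -1.23 (SE 0.15, adjusted p = 0.0159 from limma), from 327 ± 41.7 (SD, n = 3) to 139.6 ± 23.9 (SD, n = 3). LMNA, which encodes the A-type lamins that accumulate in differentiated cells, had signals of 100.1, 105 and 109.6 at E60 and of 93.3 to 104 at E80. Its days overlapped and the log2 difference of -0.081 (adjusted p = 0.790) did not pass, nor did that of its other probe set (-0.07, adjusted p = 0.910). The sign of the first turned under quantile normalization and equal medians, where it was 0.017 and 0.034. The log2 ratio of LMNB1 over LMNA within an array was 1.37 to 1.87 at E60 and 0.34 to 0.68 at E80. It was lower by a mean of 1.15 at E80, without overlap (exact permutation test, two-sided p = 0.1, adjusted p = 0.133 over 4 pairs of genes), and 0.1 is the smallest p that 3 against 3 arrays allow.

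Polycomb repressive complex 2 was represented by its catalytic subunit EZH2, by EED, which binds the methylated histone tail, and by the histone-binding protein RBBP7, which it shares with deacetylase complexes. EZH2 had signals of 286, 299 and 214 at E60 and of 109, 89.4 and 136 at E80. All E80 embryos lay below the lowest E60 embryo. EZH2 fell 2.40-fold, a log2 change of -1.26 (SE 0.19, adjusted p = 0.0233 from limma). EED had signals of 215, 237 and 210.4 at E60 and of 184, 211 and 194 at E80. The days met at their edges, and the log2 difference of EED was -0.17 (SE 0.11, adjusted p = 0.460), with -0.30 (adjusted p = 0.448) on its other probe set. RBBP7 had signals of 1130 to 1185 at E60 and of 1153 to 1258 at E80 (0.077, adjusted p = 0.662), with a turned sign under quantile normalization (-0.031). Whether EZH2 and its partners differed in their change was not tested. Among 10 measured genes of Polycomb complex 1 and of further Polycomb partners none passed, with a median log2 difference of -0.16. The one with the smallest p was MTF2, an accessory subunit that guides complex 2 to DNA. It had signals of 479, 490.3 and 483 at E60 and of 383, 357 and 286 at E80 (log2 difference -0.51, adjusted p = 0.0757).

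**Figure D2:**
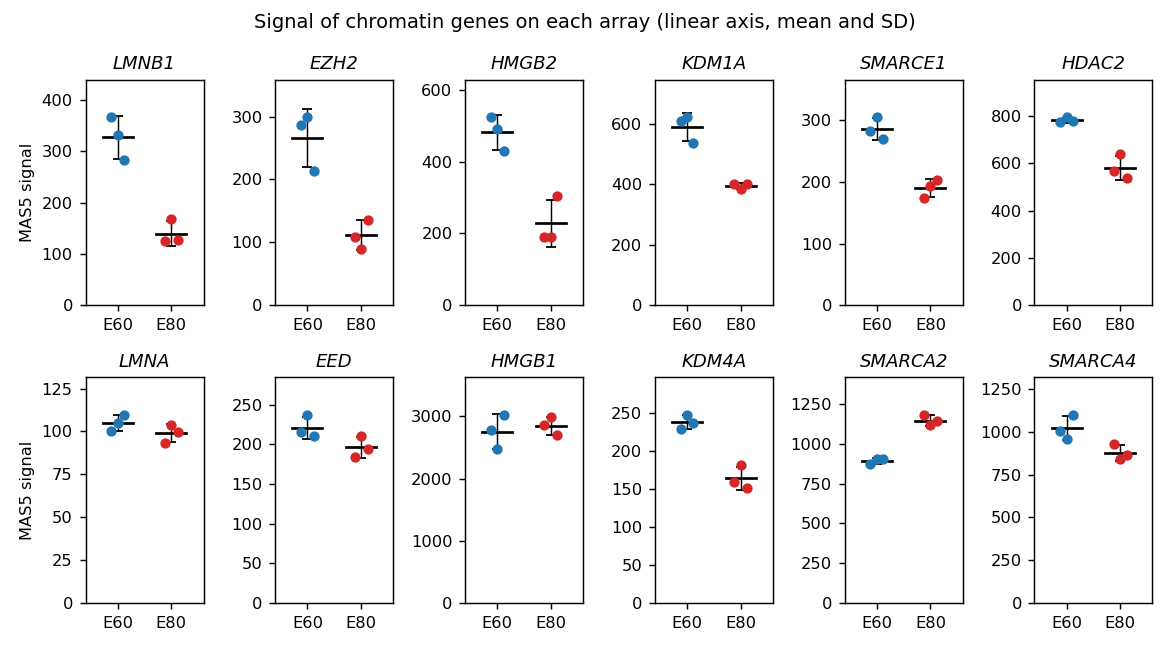
MAS5 signal (vertical axis, linear from 0) of 12 chromatin genes on each array. Each point is 1 embryo (blue for E60, red for E80, n = 3 per day), with the mean as a long bar and the SD as whiskers. LMNB1, EZH2, HMGB2, KDM1A, SMARCE1, HDAC2, KDM4A and SMARCA4 lay lower and SMARCA2 lay higher at E80 on every array, while LMNA, EED and HMGB1 overlapped.

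All 8 measured histone lysine demethylases had a lower mean log2 signal at E80, and 1 of them passed the test. KDM1A, also known as LSD1, removes methyl groups from lysine 4 of histone H3 within the CoREST repressor complex. It had signals of 609, 622 and 535 at E60 and of 402, 383 and 401 at E80, with little spread within E80. KDM1A fell by 0.57 on the log2 scale (SE 0.09, adjusted p = 0.0291 from limma), a 1.49-fold difference, and did not pass when the medians were equal (-0.46, adjusted p = 0.0620). KDM4A and KDM4B, Jumonji enzymes that act on lysines 9 and 36 of histone H3, did not pass. KDM4A had signals of 229, 248 and 237 at E60 and of 159.7, 181 and 152 at E80 (log2 difference -0.54, adjusted p = 0.0544). For KDM4B the log2 difference was -0.41 (adjusted p = 0.205), and embryo 1 of E80, at 349.8, was close to the E60 range of 358 to 398. In 4 of the 8 genes the signals of E80 were lower without overlap, against 14.7% of the named genes. The median of the 8 log2 differences was -0.41, and single values ran from -0.57 for KDM1A to -0.011 for KDM5C.

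Among 5 SET-domain methyltransferase genes none passed on the brightest probe set. KMT5B, which methylates lysine 20 of histone H4, had signals of 501, 504 and 704 at E60 and of 400.4, 448 and 376 at E80. Its log2 difference was -0.47 (SE 0.15, adjusted p = 0.148), and embryo 3 of E60 set the width of that day. On another of its 5 probe sets the signals were 349, 403 and 299 at E60 and 200.1, 229 and 176 at E80, and this one fell by 0.80 on the log2 scale (SE 0.15, adjusted p = 0.0391 from limma). It was the only further probe set of a chromatin gene that passed, so that 6 of 141 probe sets had fallen (4.26%). KMT2E, a relative of the MLL proteins, differed by 0.26 (adjusted p = 0.288) on its brightest probe set and of -0.29 (adjusted p = 0.347) on the next, which are opposite signs for 1 gene. For SETDB1, which methylates lysine 9 of histone H3, it was -0.15 (adjusted p = 0.502).

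The 6 histone deacetylases went in both directions and none passed. HDAC2, a class I enzyme of the CoREST, NuRD and Sin3 complexes, had signals of 774, 795 and 779.8 at E60 and of 566, 638 and 538 at E80. The 3 embryos of E60 were nearly equal and all higher than those of E80. Its log2 difference was -0.43 (SE 0.09, adjusted p = 0.0564 from limma), and it passed in 3 of the 13 other settings, at adjusted p of 0.0398 to 0.0484. The closely related HDAC1 overlapped between the days (-0.25, adjusted p = 0.434). The log2 ratio of HDAC2 over HDAC1 differed by -0.18 between the days (exact permutation test, two-sided p = 0.2, adjusted p = 0.2 over 4 pairs). HDAC3, the enzyme of the NCoR complex, had signals of 263 to 273 at E60 and of 218 to 228 at E80 (log2 difference -0.26, adjusted p = 0.195). HDAC11 had the highest value of the 79 genes, with 94.4 to 149 at E60 and 126 to 162 at E80 (0.37, adjusted p = 0.371), and its days overlapped.

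**Figure D3:**
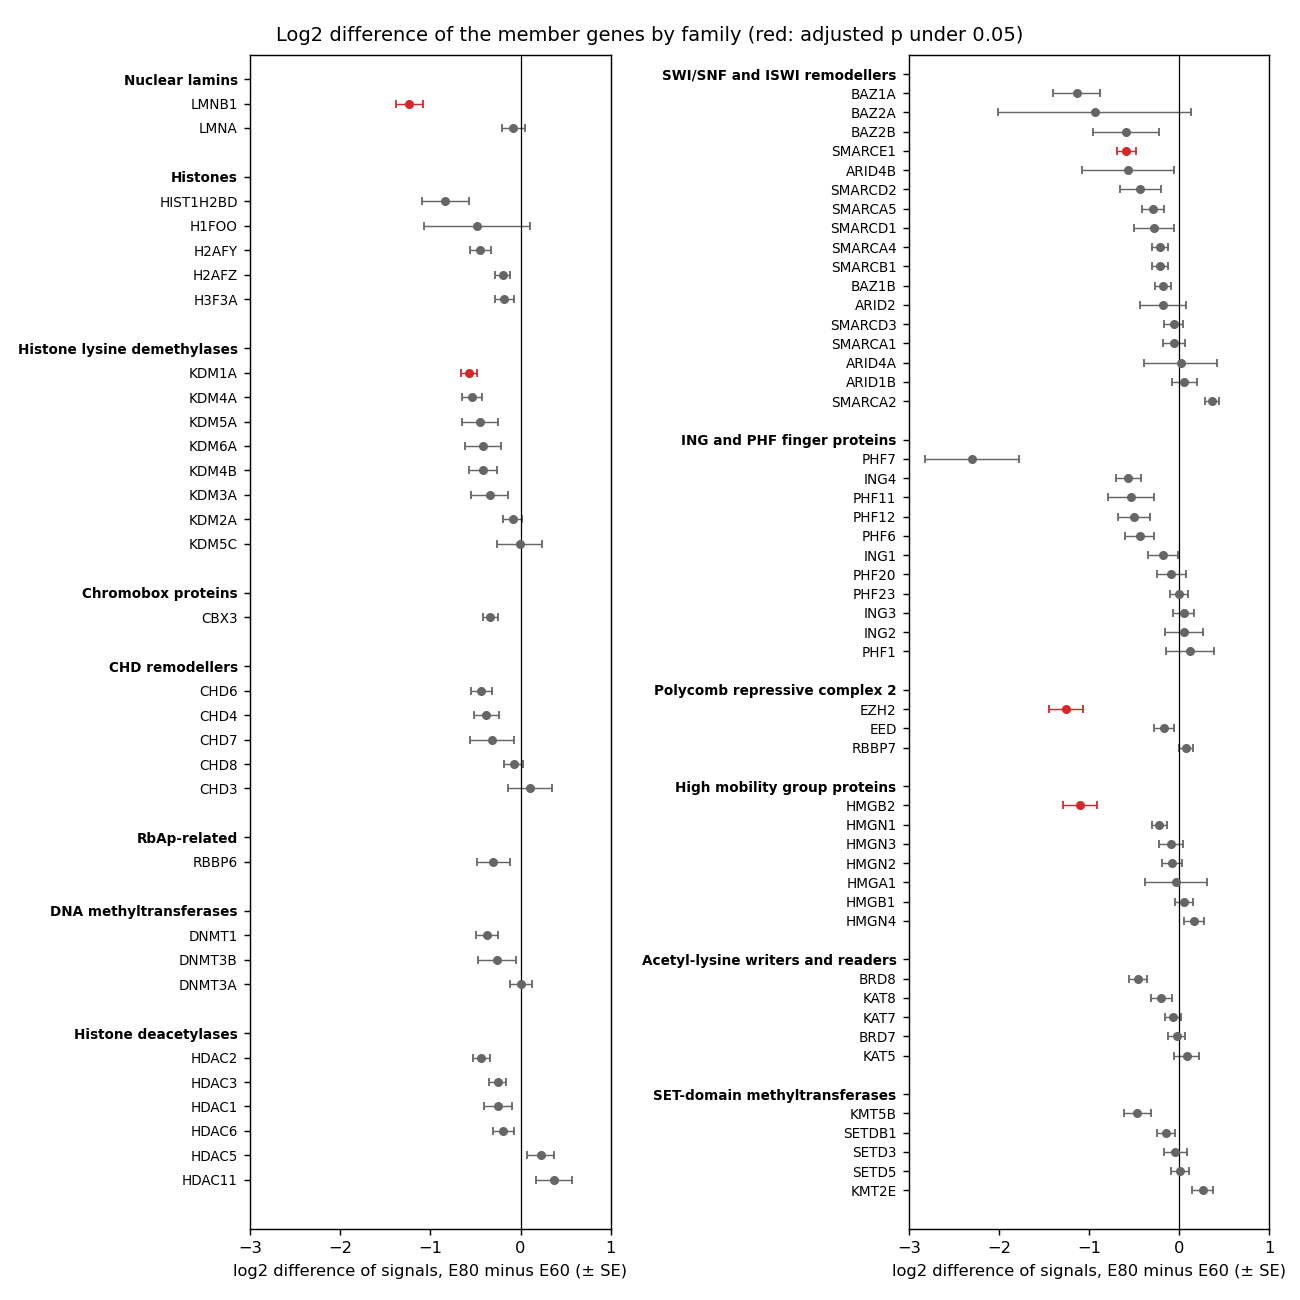
Log2 difference of the brightest probe set of each of the 79 chromatin genes, E80 minus E60 (horizontal axis), with the standard error from limma as bars, grouped by family and ordered within it. Red points passed the test (LMNB1, KDM1A, SMARCE1, EZH2 and HMGB2). Most points lie left of 0 (63 of 79), and the lowest is the dim probe set of PHF7.

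Of the 17 genes of SWI/SNF and ISWI remodellers and their ARID and BAZ partners, 1 fell, and 14 had a lower mean log2 signal at E80. SMARCE1, a subunit that carries an HMG domain, had signals of 283, 305 and 270.2 at E60 and of 175, 193 and 204 at E80. It fell by 0.59 on the log2 scale (SE 0.11, adjusted p = 0.0393 from limma), and did not pass when the medians were equal (-0.47, adjusted p = 0.0650). The core subunit SMARCB1 was lower without overlap, at a log2 difference of -0.21 (adjusted p = 0.263). The alternative ATPases of the complex, SMARCA4 (BRG1) and SMARCA2 (BRM), had differences of opposite sign. SMARCA4 had signals of 1006, 960.3 and 1098 at E60 and of 928, 840.4 and 864 at E80 (-0.22, adjusted p = 0.246). SMARCA2 had signals of 874, 903 and 905 at E60 and of 1182, 1116 and 1142 at E80 (0.36, SE 0.08, adjusted p = 0.0564 from limma). The days did not overlap for either gene. The log2 ratio of SMARCA2 over SMARCA4 was -0.28 to -0.09 at E60 and 0.35 to 0.41 at E80, a mean difference of 0.58 (exact permutation test, two-sided p = 0.1, the smallest possible, adjusted p = 0.133 over 4 pairs). This pair was chosen after its values were seen.

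The ISWI ATPase SMARCA5 was lower at E80 without overlap on all 3 of its probe sets, with log2 differences of -0.29, -0.35 and -0.62 (adjusted p = 0.239, 0.127 and 0.0729). BAZ1A, its partner in the ACF complex that spaces nucleosomes, had signals of 52.8, 55.9 and 47.2 at E60 and of 17.4, 24.8 and 30.1 at E80. The log2 difference of BAZ1A was -1.14 (SE 0.26, adjusted p = 0.0682 from limma). With tests on the brightest 66% of probe sets only, BAZ1A passed, at an adjusted p of 0.0407. Embryo 3 differed from the others of its day on both days for ARID4A, a subunit of Sin3 complexes, with 525, 511 and 224 at E60 and 549, 491 and 228 at E80. The log2 difference of ARID4A, which was singled out after its values were seen, was 0.01 (SE 0.41, adjusted p = 0.992).

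Of 5 CHD remodellers none passed. CHD6 had signals of 401, 354 and 307 at E60 and of 253, 262 and 267 at E80 (log2 difference -0.43, adjusted p = 0.103). CHD4, the main ATPase of the NuRD complex, overlapped between the days (-0.38, adjusted p = 0.195). CHD7, which is mutated in CHARGE syndrome, differed by -0.32 (adjusted p = 0.552), and CHD3, another NuRD ATPase, by 0.11 (adjusted p = 0.863). The single signal of CHD3 that stood out was that of embryo 3 of E60, at 1027 against 507 to 778 on the other arrays.

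The DNA methyltransferases differed from each other in their values, and none passed. DNMT1, which copies methylation to the new strand after replication, had signals of 416, 399 and 356 at E60 and of 342, 261 and 305 at E80. All E80 embryos were below all E60 embryos on this and on the next brightest of its 4 probe sets, at -0.37 on the log2 scale (adjusted p = 0.168) for the first and -0.48 (adjusted p = 0.156) for the next. The de novo enzyme DNMT3A had signals of 269 to 345 at E60 and of 276 to 322 at E80, which overlapped, and a log2 difference of 0.0051 (adjusted p = 0.988). DNMT3B, the other de novo enzyme, differed by -0.26 (adjusted p = 0.568).

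High mobility group proteins are small proteins that bind the nucleosome or bend DNA. HMGB2, known from dividing cells, had signals of 523, 490.5 and 429 at E60 and of 191, 191 and 304 at E80. Embryo 3 of E80 was the highest of its day and still below E60. HMGB2 fell 2.15-fold, a log2 change of -1.11 (SE 0.19, adjusted p = 0.0327 from limma). Its close relative HMGB1 had signals of 2471 to 3021 at E60 and of 2697 to 2982 at E80 and 4 probe sets with log2 differences between -0.06 and 0.05. The brightest of them (0.05, adjusted p = 0.835) turned sign under quantile normalization, to -0.034. Within the arrays the log2 ratio of HMGB2 over HMGB1 was -2.82 to -2.33 at E60 and -3.97 to -3.15 at E80, a mean difference of -1.16 without overlap (exact permutation test, two-sided p = 0.1, the smallest possible, adjusted p = 0.133 over 4 pairs). The nucleosome-binding HMGN1 was lower without overlap (-0.23, adjusted p = 0.205) and HMGN4 overlapped (0.16, adjusted p = 0.496). HMGA1 varied more within the days than between them, with 447, 327 and 859 at E60 and 503, 358 and 641 at E80.

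All 5 histone genes had a lower mean log2 signal at E80 and none passed. The variant macroH2A1 (H2AFY), which is enriched on silent chromatin, had signals of 1088, 1154 and 1109 at E60 and of 923, 873 and 684 at E80 (log2 difference -0.45, adjusted p = 0.103). H2A.Z (H2AFZ), a variant of promoters, had 1876, 1683 and 1759 at E60 and 1502, 1537 and 1587 at E80 (-0.20, adjusted p = 0.239). HIST1H2BD, a gene of the core histone H2B, had 79.6, 69.1 and 60.2 at E60 and 27.5, 42.6 and 50.1 at E80 (-0.83, adjusted p = 0.140). H3F3A, which encodes the replication-independent variant H3.3, overlapped (-0.18, adjusted p = 0.405). So did H1FOO, at dim signals of 2.74 to 9.63 on all arrays (-0.48, adjusted p = 0.723). CBX3, the heterochromatin protein HP1 gamma, which binds methylated lysine 9 of histone H3, had signals of 1117, 1140.3 and 1155 at E60 and of 858, 990.2 and 864 at E80. These days were apart, and the log2 difference of CBX3 was -0.33 (SE 0.09, adjusted p = 0.0964 from limma). Probe sets of histone, HMGB and HMGN genes can bind transcripts of near-identical relatives, and their part in these values was not tested.

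None of the 5 acetyltransferase and bromodomain genes and none of the 11 ING and PHF finger genes passed. BRD8, a subunit of the TIP60 acetyltransferase complex, had signals of 309, 329.9 and 293 at E60 and of 233, 209.6 and 235 at E80 (log2 difference -0.46, SE 0.10, adjusted p = 0.0643). The acetyltransferases KAT8, which acts on lysine 16 of histone H4, and KAT7 were at -0.20 (adjusted p = 0.407) and -0.071 (adjusted p = 0.738), and the latter turned to 0.044 under equal medians. ING4, a reader of methylated lysine 4 of histone H3, had signals of 273, 290.0 and 226 at E60 and of 198, 180.4 and 155 at E80 (-0.57, adjusted p = 0.0848). PHF7 had the lowest value of the 79 genes (-2.30, SE 0.52, adjusted p = 0.0675 from limma) at dim signals of 11.5 to 14.2 at E60 and 1.53 to 4.72 at E80. PHF12, a Sin3 partner, and PHF6 were lower without overlap, at -0.51 (adjusted p = 0.186) and -0.44 (adjusted p = 0.190). RBBP6, a ubiquitin ligase that binds the retinoblastoma protein, had a log2 difference of -0.30 (adjusted p = 0.432).

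Of 34 chromatin genes with several probe sets, 22 had all of them lower at E80 by the mean log2 signal, 1 had all of them higher and 11 had both signs. The same counts were not made over all named genes with several probe sets, so whether these differ from the rest of the array is not known. The 5 genes that passed have 1 probe set each, so that no second probe set stands beside their values.

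Genes that work with these proteins were looked up in 7 further lists, of which 69 genes were measured. Of these 3 had fallen and 1 had risen, against 1.05% and 1.49% of the named genes, with a median log2 difference of -0.12. Lamina-associated polypeptide 2 (TMPO), which ties lamins to chromatin, had signals of 187, 188 and 151 at E60 and of 70.2, 80.9 and 82.4 at E80. TMPO fell 2.25-fold, a log2 change of -1.17 (SE 0.14, adjusted p = 0.0159 from limma). Nesprin 2 (SYNE2), which couples the nucleus to the cytoskeleton of migrating cells, fell by 0.62 (SE 0.12, adjusted p = 0.0449) on the brightest of its 3 probe sets, while the others were at -0.62 (adjusted p = 0.292) and 1.56 (adjusted p = 0.412). These are the 2 of 6 measured nuclear envelope partners that passed, and nesprin 1 (SYNE1) had a log2 difference of 1.81 (adjusted p = 0.0988) at dim signals of 4.97 to 46.4.

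SAP30, a subunit of the Sin3 deacetylase complex, had signals of 248, 250.0 and 195 at E60 and of 109.9, 109.8 and 124 at E80. It fell by 1.00 on the log2 scale (SE 0.14, adjusted p = 0.0181 from limma) and was the only one of 14 deacetylase and acetyltransferase partners that passed. MTA2, a NuRD subunit, was next among those that were lower, with 333 to 363 at E60 and 256 to 265 at E80 (-0.41, adjusted p = 0.0660), and SIRT2 was higher without overlap (0.49, adjusted p = 0.0603). The CoREST scaffold RCOR1, the partner of KDM1A, had 213 to 228 at E60 and 179.9 to 182 at E80 (-0.29, adjusted p = 0.170). The lysine methyltransferase SMYD2 went the other way, with signals of 144, 161 and 169.7 at E60 and of 374, 378 and 289.6 at E80. SMYD2 rose 2.19-fold, a log2 change of 1.13 (SE 0.14, adjusted p = 0.0159 from limma), and no other of the 16 measured genes of lysine and arginine methylation passed. The demethylase HR was at 1.10 (adjusted p = 0.0501), and SUV39H2, a lysine 9 methyltransferase, was at -0.64 (adjusted p = 0.0817).

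None of the 6 genes of cohesin, condensin and CTCF passed, and all 6 had a lower mean log2 signal at E80. The insulator protein CTCF differed by -0.53 (adjusted p = 0.0594), the cohesin loader NIPBL by -0.53 (adjusted p = 0.0682) and the cohesin release factor WAPL by -0.61 (adjusted p = 0.0848), each without overlap. Of 14 histone chaperones none passed. ASF1A and ASF1B, which hand histones to the replication fork, were lower without overlap (-0.45 and -0.74, adjusted p = 0.156 and 0.190). No gene of the 3 measured readers and editors of DNA methylation passed, and the smallest p was that of MBD1 (-0.18, adjusted p = 0.382).

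**Figure D4:**
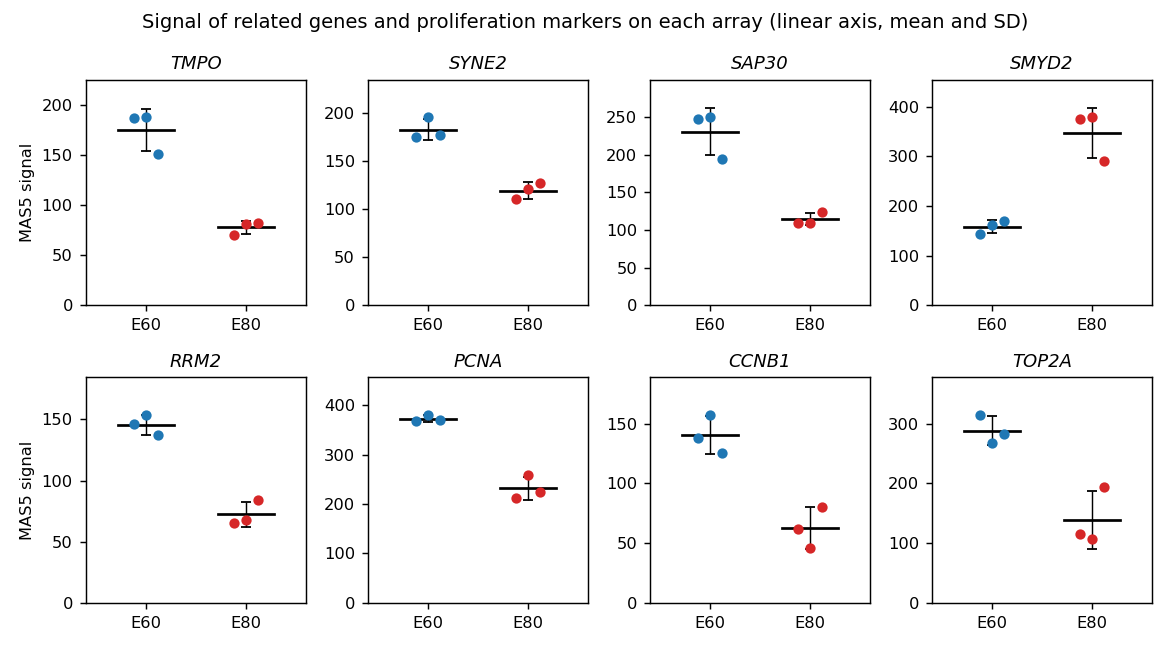
MAS5 signal (vertical axis, linear from 0) of 4 partners of the chromatin genes (top row) and 4 proliferation markers (bottom row) on each array. Each point is 1 embryo (blue for E60, red for E80, n = 3 per day), with the mean as a long bar and the SD as whiskers. SMYD2 lay higher and the other 7 lay lower at E80 on every array, in TMPO with signals of 70.2 to 82.4 against 151 to 188.

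Markers of dividing cells were mostly lower at E80 as well. Of 12 measured markers 4 had fallen and none had risen, against 1.05% and 1.49% of the named genes. Of the markers 10 were lower without overlap, against 14.7% of the named genes. The median log2 difference of the markers was -0.62, and their summed signal was 1370 to 1469 at E60 and 755 to 926 at E80. The topoisomerase TOP2A had signals of 314, 268 and 283 at E60 and of 115, 107 and 194 at E80. It fell by 1.11 on the log2 scale (SE 0.22, adjusted p = 0.0474 from limma), cyclin B1 (CCNB1) by 1.19 (adjusted p = 0.0388), the ribonucleotide reductase subunit RRM2 by 1.02 (adjusted p = 0.0218) and the replication clamp PCNA by 0.69 (adjusted p = 0.0235). In tissue RNA, fewer cells of a type and less RNA per cell cannot be told apart. The part of dividing cells in the lower signals of LMNB1, EZH2, HMGB2, KDM1A and SMARCE1 was not tested.

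None of the marker genes was listed at 0 on any array. Of 9 astrocyte markers 5 had risen, against 1.49% of the named genes, with a summed signal of 4920 to 5422 at E60 and 7479 to 10639 at E80. Of 8 neuronal markers 2 had risen, with sums of 13566 to 14969 and 17573 to 18437. Of 7 radial glia markers 2 had risen, HOPX (log2 change 0.84, adjusted p = 0.0226 from limma) and TNC (1.01, adjusted p = 0.0494), with overlapping sums of 5292 to 5441 and 4807 to 5304. This list went both ways, with 4 higher and 3 lower means at E80. Without overlap 3 were higher and 2 lower, the latter being VIM (-0.38, adjusted p = 0.179) and HES1 (-0.34, adjusted p = 0.287). No measured marker of oligodendrocytes (8), choroid plexus (5), fibroblasts and meninges (6), endothelium (8), microglia and leukocytes (5), erythroid cells (4) or intermediate progenitors (1) passed. A higher mean log2 signal at E80 was seen in 6 of 8 oligodendrocyte markers (median 0.50), with MBP, OLIG2 and the dim OPALIN higher without overlap. It was also seen in 4 of 5 microglia and leukocyte markers (median 0.62), with TYROBP higher without overlap. For AIF1, C1QA and C1QC only embryo 3 of E80 lay above E60, at 176, 140 and 227. The other E80 embryos lay within the E60 range for these genes. Of the endothelial markers 7 of 8 had a lower mean log2 signal at E80 (median -0.33), with KDR and ESAM lower without overlap and sums of 1315 to 1417 at E60 and 1023 to 1292 at E80. Of the fibroblast and meningeal markers 5 of 6 had a lower mean (median -0.60), with COL1A2 and LUM lower without overlap and overlapping sums of 1893 to 2797 and 1328 to 2188. Choroid plexus markers summed to 90.3 to 176 at E60 and to 112 to 5466 at E80, the top value being embryo 3. Without that embryo EZH2, LMNB1 and HMGB2 still passed, and KDM1A and SMARCE1 had adjusted p of 0.0678 (log2 differences -0.58 and -0.64). The part of these cells in the values of the chromatin genes was not tested.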

How the data were processed

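Biotinylated cRNA from the cortex of 3 embryos at E60 and 3 at E80 was read on Affymetrix arrays, 1 for each embryo. The intensity of each probe set was deposited by the authors as a linear MAS5 signal (version not stated), with a trimmed mean near 150.02 on every array. The 124 control probe sets were left out. Of 23999 others, 10069 carry exactly 1 symbol, 198 several and 13732 none in the platform annotation, which can be old. No genome was used, so no coordinates or sequences are given. Log2 signals, without a pseudocount, of all 6 arrays were fitted without covariates in limma 3.58.1 (R 4.3.3), with the prior variance following the mean signal and Benjamini-Hochberg adjustment. The study's methods give a fold rule and no test. Ratios of paralogues within arrays were compared with exact permutation tests (scipy 1.17.1). The planned ratios with EZH1 and LMNB2 could not be formed. On simulated signals for E80 against E60, limma found 98 of 100 probe sets changed 2-fold and 100 of 100 changed 3-fold among 23999, with 7 false calls. The changes were planted only in probe sets above the median signal, and the noise was normal and set by the mean signal alone. The simulation therefore checks the code and does not give the share of changes found, or of false calls, in the real arrays. Array signals carry no counting depth. Precision is limited by the 3 embryos of a day.

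The genes and lists were chosen with earlier results of these data known. Named are the genes that passed, in each family up to 3 genes with the smallest p and the brightest, paralogues of genes that passed, and in each further list the genes that passed and up to 3 with the smallest p, of which not each is printed. KDM5C, ARID4A, HMGA1, H1FOO, SMARCA5, SMARCB1, RCOR1, SIRT2 and the pairs other than LMNB1 with LMNA were chosen after their values were seen. KDM4C, which the paper lists, carries no symbol here and was not analysed. Alternatives were other scalings, a pseudocount of 32, only the brightest 66% of probe sets, other variance models, the mean over a gene's probe sets and leaving out each array.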

Additional observations from a re-analysis of the deposited data

How the results depend on the processing

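No paired analysis was possible because the labels carry no replicate number, litter or batch shared between the days, and the numbers 1 to 3 used here only follow the order of listing. Across 11999 probe sets, the deviations from the mean of the day correlated between the embryos of like number at 0.103, 0.241 and 0.246, and between the other combinations at -0.30 to 0.075. What arrays of like number share was not tested. The 5 genes that fell had the same direction in each of the 13 other settings, but only the other scalings could have turned it. The variance models, the brightest 66% and the mean over probe sets leave the log2 differences of these genes unchanged. Leaving out an array or adding 32 cannot turn the sign where the days do not overlap. The number of chromatin genes fallen was 8 with quantile normalization, 3 with equal medians, 9 on the brightest 66% of probe sets (76 genes, with 1 risen, SMARCA2), 0 without the intensity trend and 0 to 3 with each array left out. Among all 23999 probe sets 229 had fallen with quantile normalization, 108 with equal medians, 0 without the intensity trend and 1 to 189 with each array left out. On the brightest 66% it was 410 of 15839. Without the intensity trend EZH2 was at -1.26 (adjusted p = 0.141 from limma) and LMNB1 at -1.23 (adjusted p = 0.125), and with each array left out -1.42 to -1.11 and -1.37 to -1.15. Both passed without embryo 3 of E60 and without embryo 2 or 3 of E80. The number of genes lower without overlap was 18 with equal medians, and that of genes higher without overlap was 1 with the mean over probe sets and 2 to 9 with each array left out, the 9 without embryo 3 of E60 and 5 without embryo 3 of E80. The median log2 difference was -0.10 with equal medians, -0.18 with 32 added, -0.20 on the brightest 66% and -0.26 to -0.19 with each array left out. The ratios of paralogues kept their signs in each setting run.

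Signs turned for some genes that did not pass. With quantile normalization RBBP7 was -0.031, LMNA 0.017, HMGB1 -0.034 and ARID4A -0.0047, with equal medians LMNA was 0.034, KAT7 0.044 and HMGA1 0.075, and with the mean over probe sets CHD3 was -0.054, HMGB1 -0.017 and ARID4A -0.22. With each array left out, values ran from -0.086 to 0.42 for CHD3, from -0.073 to 0.11 for DNMT3A, from -0.026 to 0.12 for HMGB1, from -0.39 to 0.41 for ARID4A and from -0.35 to 0.35 for HMGA1. The cause was not tested.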
